A study of Mus musculus with 9 samples.

Results

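The 33 genes described here encode the machinery that brings new proteins to the endoplasmic reticulum (ER), threads them through or into its membrane, and cuts off their signal peptides. They were chosen by gene name from a table of 54532 genes, as members of named complexes and not by a cut on their expression. Earlier results of these data were known when they were chosen. There are 6 genes of the signal recognition particle, SRP (Srp9, Srp14, Srp19, Srp54a, Srp68, Srp72), and 2 of its receptor (Srpr, Srprb). There are 6 of the Sec61 channel and its partners (Sec61a1, Sec61a2, Sec61b, Sec61g, Sec62, Sec63), and 5 of the translocon-associated protein (TRAP) complex with the membrane protein TRAM (Ssr1, Ssr2, Ssr3, Ssr4, Tram1). The remaining members are 5 genes of signal peptidase (Spcs1, Spcs2, Spcs3, Sec11a, Sec11c) and 9 of the ER membrane complex, EMC (Emc1, Emc2, Emc3, Emc4, Emc6, Emc7, Emc8, Emc9, Emc10).

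Secreted proteins and most membrane proteins begin with a hydrophobic stretch that SRP binds as it leaves the ribosome. SRP then docks on its receptor, the ribosome is passed to Sec61, TRAP and TRAM help the chain enter, and signal peptidase removes the signal peptide in the ER lumen. EMC is a separate insertase for tail-anchored proteins and for the first membrane segments of many multipass proteins. Hepatocytes make most plasma proteins and so depend heavily on this route. Under ER stress, the unfolded protein response is known to raise many genes of protein entry and folding, in large part through the transcription factors XBP1 and ATF6.

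RNA was measured by sequencing in primary hepatocytes of C57BL/6 mice, in 3 groups of 3 libraries. All groups carried a floxed COX-2 gene (Ptgs2, an enzyme of prostaglandin synthesis) on both alleles. The WT DMSO and WT Tu groups came from Alb-Cre-negative littermates, which keep COX-2, and the CKO Tu group from Alb-Cre-positive mice, in which the albumin promoter directs Cre to hepatocytes. The cells spent 2 h in 1% serum and then 24 h with the vehicle DMSO or with 6 μmol/L tunicamycin (Tu), an antibiotic that blocks the first step of N-glycosylation and so fills the ER with unfolded proteins. The labels give the mice as male, give no age, and do not say how many animals stand behind the 3 libraries of a group. P-values therefore measure the spread between these libraries, which may be technical. Knockout cells with vehicle were not analysed here, so the response of the knockout to tunicamycin cannot be told apart from its baseline.

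Each library held 14897358 to 16001484 fragments assigned to genes. One library, WT Tu replicate 1, lay away from its group, at -36.6 on the second principal component against -19.6 for the other two, and had the highest mitochondrial share of all libraries, 6.87%. Ptgs2 had 0 to 13 fragments in each WT library and 1 or 2 in each CKO library. The CKO libraries had 3486 to 3633 fragments of 4 Y-linked genes and at most 3 of Xist, whereas the WT libraries had 0 of the Y-linked genes and at least 20659 of Xist. The WT values go against the label of male, and the CKO values do not. Genotype and sex therefore cannot be told apart in any comparison of CKO Tu with a WT group. The 7 hepatocyte markers summed to 16150 to 17982 FPKM (fragments per kilobase of a gene's exons, relative to the size of the library) in WT DMSO, 16042 to 17519 in WT Tu and 14105 to 15003 in CKO Tu, most of it Alb. In WT Tu against WT DMSO, 2 of the 7 were called lower and none higher. These were Cyp2e1 (149 to 109 FPKM, limma adjusted p = 0.00595) and Ttr (1736 to 1521 FPKM, limma adjusted p = 0.0468). In CKO Tu against WT Tu, Alb was called lower and the other 6 higher, Tat with a mean ratio of 5.57 and Apoa1 of 3.38. Of 8 endothelial markers, 4 passed the filter on low values, and all 4 were called lower in WT Tu than in WT DMSO. All 8 together summed to 10.2 to 11.2 FPKM in WT DMSO, 3.85 to 5.25 in WT Tu and 2.96 to 3.34 in CKO Tu. Pecam1 alone was also called lower in CKO Tu than in WT Tu (0.663 to 0.208 FPKM, limma adjusted p = 0.00849). The 8 Kupffer cell markers summed to 75.2 to 92.9, 96.9 to 115 and 92.7 to 107 FPKM, almost all of it Cd68. That marker was called higher in WT Tu than in WT DMSO (83.1 to 107 FPKM, limma adjusted p = 0.0197). Of the other Kupffer markers, Lyz2 was called lower in WT Tu than in WT DMSO (1.48 to 0.149 FPKM, limma adjusted p = 0.000727), and Mpeg1 (0.597 to 0.230 FPKM), Csf1r (0.297 to 0.112) and Cd5l (0.131 to 0) were too low to test. Vsig4 was at 0 in all libraries and Adgre1 averaged at most 0.155 FPKM. The 7 stellate markers summed to at most 7.25 FPKM, the 5 cholangiocyte markers to 22.7 to 25.9, 22.8 to 24.3 and 34.3 to 38.3 FPKM, and the 5 lymphocyte and neutrophil markers to under 1 FPKM. Of the 2 stellate markers tested, Reln was called higher in CKO Tu (1.90 FPKM) than in WT Tu (0.121 FPKM, limma adjusted p = 5.43e-05). Ecm1, the other, was not called there. Of the cholangiocyte markers, Spp1 (16.7 to 27.2 FPKM) and Sox9 (5.57 to 8.25 FPKM) were called higher in CKO Tu than in WT Tu (limma adjusted p = 0.000418 and 0.0390). The rest were too low to test, with WT Tu and CKO Tu means of 0.722 and 0.359 FPKM for Epcam, 0.474 and 0.487 for Krt19, and 0.0128 and 0.00914 for Krt7. The part of these other cells in the results was not tested.

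Transcripts of most of the entry machinery were higher in wild-type hepatocytes given tunicamycin, and those of EMC stayed closer to the vehicle level. Genes that reached an FPKM of 1 in 3 or more libraries were tested with limma on log2(FPKM + 1), a scale that understates the change of low genes, and a gene was called at a Benjamini-Hochberg adjusted p below 0.05. Of the 33 members, 32 passed that filter and Emc9 did not. In WT Tu against WT DMSO, 24 of the 32 rose, 2 fell (Emc1 and Emc10) and 6 were not called (Srp54a, Sec61a2, Emc3, Emc4, Emc6 and Emc8). Over all 11858 genes tested, 17.7% rose, 15.9% fell and 33.6% were called either way. The median change of the members was 0.76 on the log2 scale, against -0.0015 for all genes tested. A rise of at least 1 on that scale was called for 9 members, and for 2.34% of all genes. The WT Tu and WT DMSO libraries did not overlap for 27 members, and for 46.7% of all genes. In bulk RNA, fewer cells of a type and less RNA per cell cannot be told apart, which holds for every difference below.

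**Figure D1:**
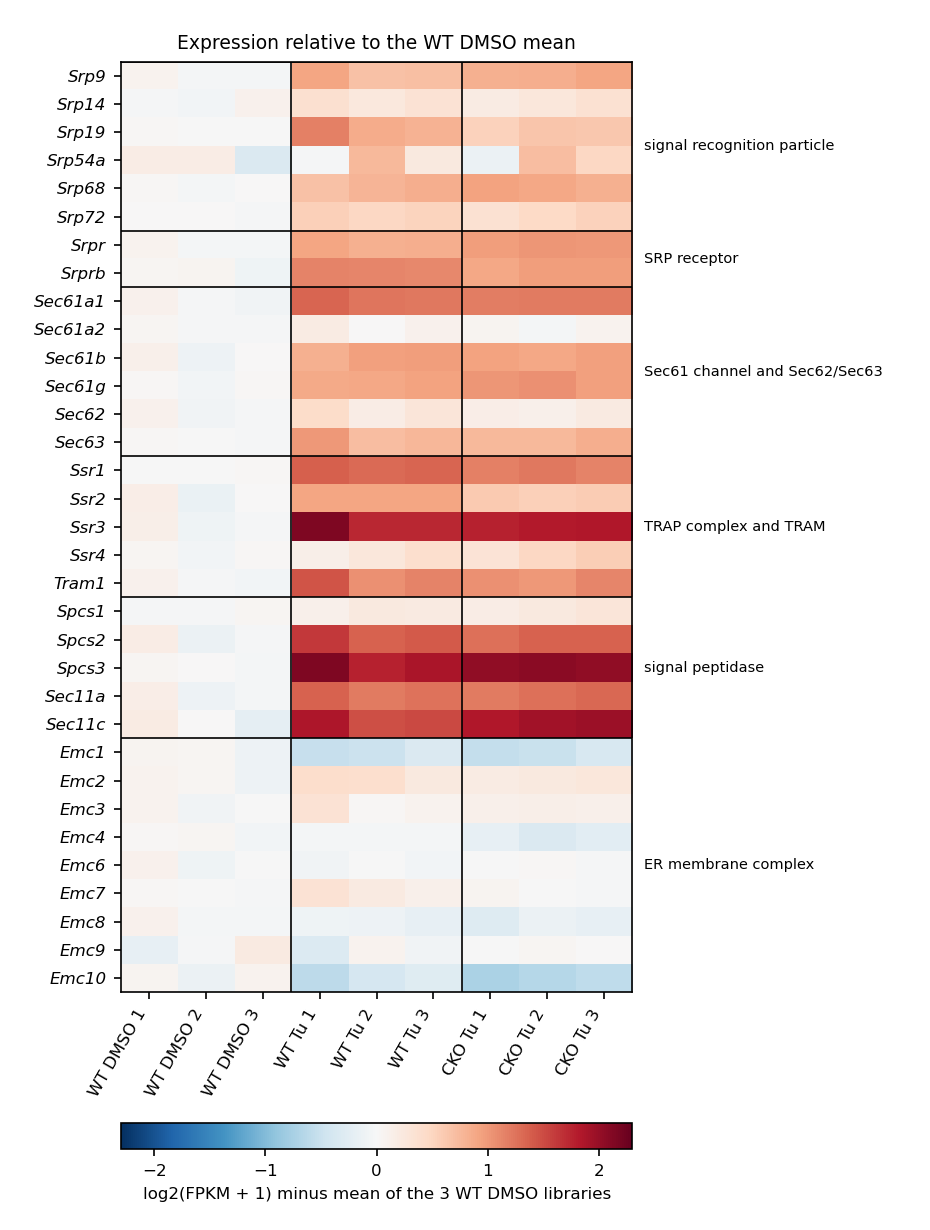
Expression of each of the 33 members (rows, by complex) in each of the 9 libraries (columns, by group and replicate), as log2(FPKM + 1) minus the mean of the 3 WT DMSO libraries, with red for higher and blue for lower. The rows of Ssr3, Spcs3 and Sec11c are the darkest red in the tunicamycin libraries, with WT Tu replicate 1 the darkest of its group for all 3, while the EMC rows stay pale.

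The counts differed between complexes. Outside EMC, 22 of 24 members rose and none fell (0 also by voom and 0 at an unadjusted p below 0.05), all 24 had a positive change, and the median was 0.90. Of the 8 EMC members tested, 2 rose and 2 fell, the median was -0.05 and the changes ran from -0.45 to 0.34. No test of the difference between the complexes was made. By complex, the median change was 0.63 for SRP (5 of 6 rose), 0.99 for its receptor (2 of 2), 0.86 for Sec61 with Sec62 and Sec63 (5 of 6), 1.22 for TRAP with TRAM (5 of 5) and 1.47 for signal peptidase (5 of 5). Leaving out WT Tu replicate 1 kept all 26 calls.

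**Figure D2:**
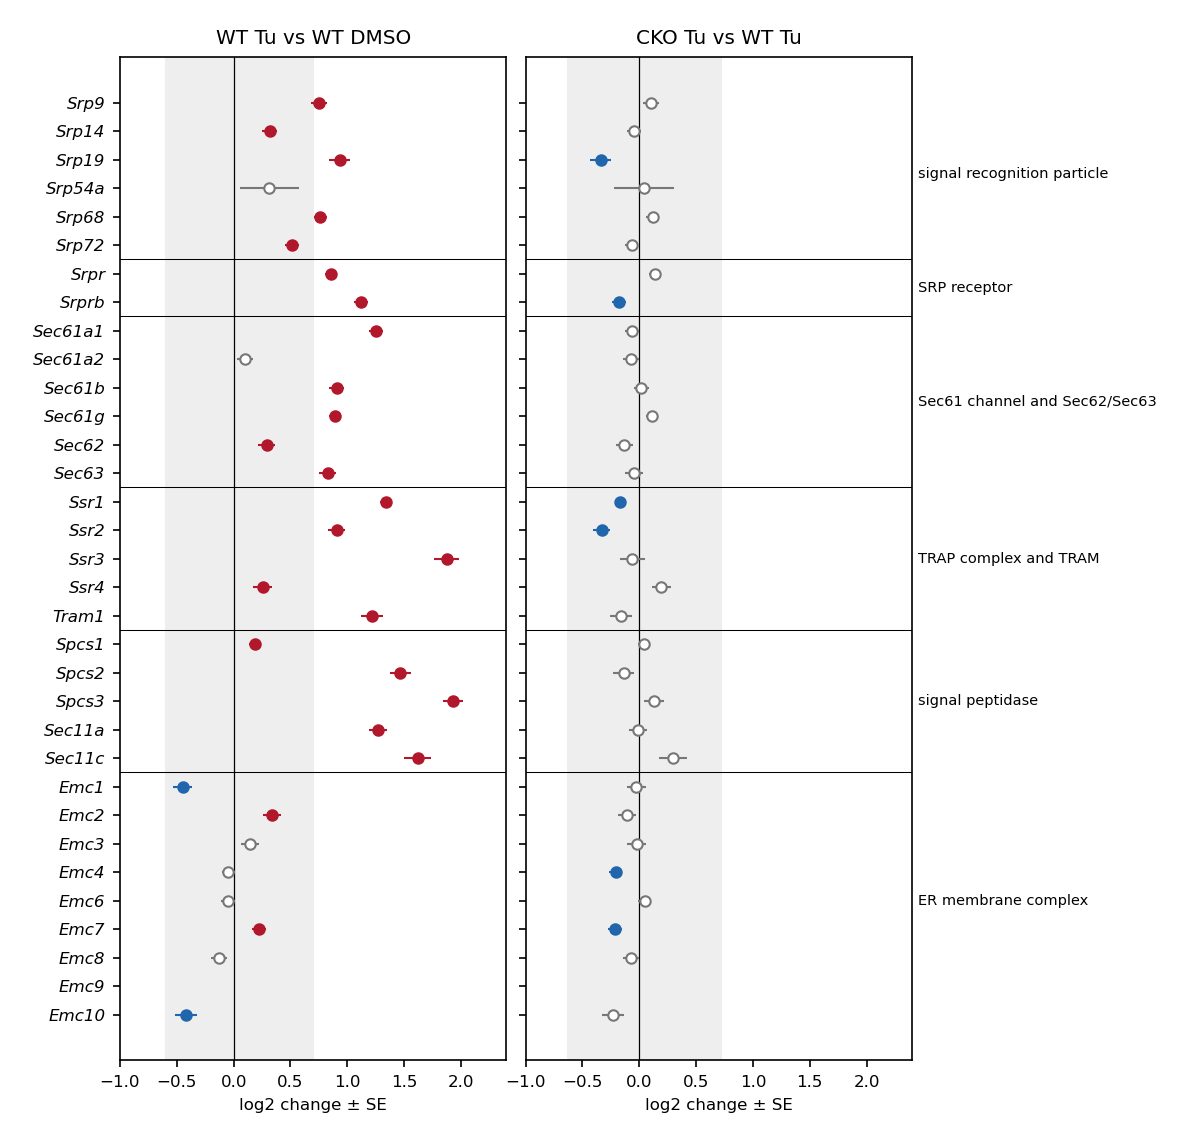
Log2 change with its standard error (x axis) for each member (y axis, by complex), for WT Tu against WT DMSO on the left and CKO Tu against WT Tu on the right. Red points were called higher, blue points lower and open points not called, the grey band spans the 5th to the 95th percentile of all genes tested, and Emc9 was not tested. The members outside EMC lie to the right of 0 on the left side, with Spcs3 farthest at 1.93, and all members lie within the grey band on the right side.

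Since many members rose together, their promoters were searched for motifs known from unfolded protein response genes. The promoter sequences are those of RefSeq on build GRCm38.p6, 300 bases from 250 before to 50 after the start, and those of 23 of the 33 members were searched. The source held no promoter for Emc2, Emc8, Sec11c, Sec61a1, Spcs3, Srp19, Srp68, Ssr2 and Tram1. Several of the members that rose most were thus not searched, among them Spcs3 (1.93), Sec11c (1.62), Sec61a1 (1.26) and Tram1 (1.22 on the log2 scale). Searched on both strands were the ER stress element ERSE (CCAAT and CCACG with 9 bases between them), ERSE-II (ATTGG and CCACG with any 1 base between them), the XBP1 and ATF6 site TGACGTGG, and GCCACGT, whose letters CCACG also close both ER stress elements and whose reverse strand shares ACGTGG with TGACGTGG. None of the searched member promoters held ERSE, ERSE-II or TGACGTGG, which are in the promoters of 0.137%, 0.0444% and 0.714% of 27025 genes. GCCACGT was found in 4 of the 23 member promoters, those of Srprb, Sec63, Ssr1 and Spcs1, and in those of 2.95% of all genes. All 4 genes rose with tunicamycin, among 15 searched members that rose, and the motif was in neither of the 2 that fell nor in the 5 that were not called. Emc9, also searched and without the motif, was not tested for a change. Most searched members rose, and a link of the motif to the rise was not tested. The Spcs1 call was lost in 9 of the 19 alternative settings. A match describes these letters only, and no match says only that they are not in this window. The 4 promoters are shown because they are the ones that hold the motif, on their gene's strand, with GCCACGT in capitals. They are at chr9:103202016-103202315 (minus strand) for Srprb, chr10:42761246-42761545 (plus) for Sec63, chr13:37994159-37994458 (minus) for Ssr1 and chr14:31001617-31001916 (minus) for Spcs1.
Srprb: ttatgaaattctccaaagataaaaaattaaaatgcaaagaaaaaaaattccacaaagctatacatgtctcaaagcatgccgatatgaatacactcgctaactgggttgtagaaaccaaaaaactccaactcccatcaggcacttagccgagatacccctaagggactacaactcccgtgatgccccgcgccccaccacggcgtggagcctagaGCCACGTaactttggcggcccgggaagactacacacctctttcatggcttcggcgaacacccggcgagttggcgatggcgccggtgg
Sec63: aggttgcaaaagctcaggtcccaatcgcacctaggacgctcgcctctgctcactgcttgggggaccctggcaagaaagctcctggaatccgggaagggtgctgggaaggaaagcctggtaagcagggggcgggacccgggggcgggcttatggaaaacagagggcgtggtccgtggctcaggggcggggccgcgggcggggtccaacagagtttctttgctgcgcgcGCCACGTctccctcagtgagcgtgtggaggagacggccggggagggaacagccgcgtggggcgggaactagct
Ssr1: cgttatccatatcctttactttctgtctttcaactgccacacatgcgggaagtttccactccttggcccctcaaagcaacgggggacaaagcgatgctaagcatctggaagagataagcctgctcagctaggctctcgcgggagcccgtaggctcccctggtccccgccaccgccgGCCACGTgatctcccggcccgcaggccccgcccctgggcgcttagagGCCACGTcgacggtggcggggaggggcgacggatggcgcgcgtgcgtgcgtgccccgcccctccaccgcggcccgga
Spcs1: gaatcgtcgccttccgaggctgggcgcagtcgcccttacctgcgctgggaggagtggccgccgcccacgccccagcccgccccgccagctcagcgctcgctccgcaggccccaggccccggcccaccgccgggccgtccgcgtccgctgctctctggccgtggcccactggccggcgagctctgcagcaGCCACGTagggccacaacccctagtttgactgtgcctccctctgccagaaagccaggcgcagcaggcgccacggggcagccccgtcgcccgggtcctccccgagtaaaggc

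**Figure D3:**
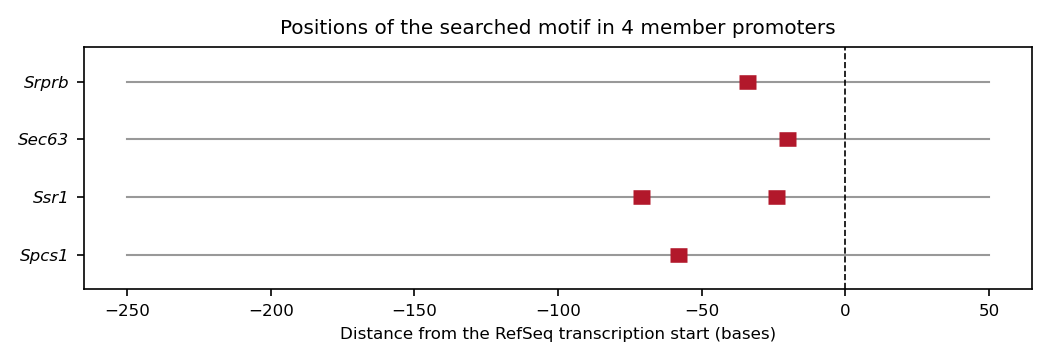
Position of GCCACGT (red boxes) in the 4 member promoters that hold it, as distance in bases from the RefSeq start (x axis, dashed line at 0), with grey lines for the searched window. The boxes begin between -74 and -23, with 2 boxes in Ssr1.

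The motif stood at -37 to -31 from the start in Srprb, at -23 to -17 in Sec63 and at -61 to -55 in Spcs1. Ssr1 held it at -74 to -68 and again at -27 to -21. The changes of these 4 genes with tunicamycin were spread widely, from 1.34 for Ssr1 to 0.19 for Spcs1.

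Among the SRP genes, Srp19, Srp68 and Srp9 rose most (gene positions are those of the deposited table, on build mm10). Srp19, which binds the SRP RNA and lets Srp54 join it, stood at 10.8, 10.4 and 10.4 FPKM in WT DMSO, 24.8, 19.7 and 19.0 in WT Tu, with 15.7, 17.0 and 16.7 in CKO Tu. The groups did not overlap, with CKO Tu between the other two, and the rise in WT Tu was 0.93 ± 0.09 on the log2 scale (SE, limma adjusted p = 0.000109), with a mean ratio of 2.01. Srp68 (chr11:116245166-116274217), which with Srp72 forms a large dimer on the SRP RNA, stood at 45.2, 43.4 and 45.1 FPKM in WT DMSO, 71.5, 77.6 and 80.0 in WT Tu, with 85.4, 83.9 and 79.5 in CKO Tu. All tunicamycin libraries were above all vehicle libraries, and the rise in WT Tu was 0.76 ± 0.06 (limma adjusted p = 1.97e-05). Srp9, a part of the domain that slows the ribosome, stood at 15.01, 13.6 and 13.6 FPKM in WT DMSO, 27.1, 22.9 and 23.2 in WT Tu, with 25.6, 25.9 and 27.1 in CKO Tu. It rose by 0.75 ± 0.07 (limma adjusted p = 0.000109), with no overlap between vehicle and tunicamycin. Its dimer partner Srp14 rose less, by 0.32 ± 0.07 (limma adjusted p = 0.00602), and Srp72 by 0.51 ± 0.06 (limma adjusted p = 0.000256).

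Srp54a, one of the genes for the GTPase that grips the signal sequence, was not called, at 0.32 ± 0.26 (limma adjusted p = 0.388). The mouse genome has near-identical copies, Srp54b and Srp54c, and the fragments were divided among the 3 copies unevenly between replicates, so the value of a single copy is uncertain. Srp54b, for example, had 48, 216 and 297 fragments in the WT DMSO libraries and 51, 63 and 277 in WT Tu. Summed over the copies, the level was 9.85 ± 2.60 FPKM in WT DMSO, 11.7 ± 2.28 in WT Tu and 12.6 ± 2.498 in CKO Tu (SD, n = 3 each). The exact two-sided permutation p was 0.5 for WT Tu against WT DMSO and 0.6 for CKO Tu against WT Tu, both 0.6 after adjustment over the 2 tests, and 3 libraries against 3 cannot go below 0.1. A difference was not detectable in these libraries.

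Both subunits of the SRP receptor rose. Srpr (chr9:35200175-35247973), the GTPase that meets Srp54, stood at 87.8, 80.2 and 79.7 FPKM in WT DMSO, 156, 147 and 148 in WT Tu, with 162, 168 and 165 in CKO Tu, the second highest mean of the members in every group. Srprb (chr9:103188032-103202137), which anchors the receptor in the membrane, stood at 10.7, 10.95 and 9.61 FPKM in WT DMSO, 24.1, 23.9 and 23.4 in WT Tu, with 20.1, 21.3 and 21.3 in CKO Tu. For both, each tunicamycin library was above each vehicle library. In WT Tu the rise was 0.85 ± 0.05 for Srpr (limma adjusted p = 8.21e-06) and 1.12 ± 0.06 for Srprb (limma adjusted p = 2.94e-06).

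All 3 subunits of the main Sec61 channel rose. Sec61a1 (chr6:88503579-88518905), which forms the pore, stood at 41.3, 37.7 and 36.3 FPKM in WT DMSO, 98.7, 91.0 and 89.8 in WT Tu, with 87.5, 89.6 and 89.6 in CKO Tu. Sec61b, a small subunit that spans the membrane once, stood at 36.9, 31.4 and 34.0 FPKM in WT DMSO, 61.1, 66.3 and 66.8 in WT Tu, with 65.8, 64.2 and 66.5 in CKO Tu. Sec61g, the other small subunit, stood at 13.6, 12.7 and 13.6 FPKM in WT DMSO, 25.3, 25.3 and 26.1 in WT Tu, with 28.0, 28.8 and 26.5 in CKO Tu. None of the 3 had a vehicle library as high as its lowest tunicamycin library. The rise in WT Tu was 1.26 ± 0.06 for Sec61a1 (limma adjusted p = 1.76e-06), 0.91 ± 0.07 for Sec61b (limma adjusted p = 1.81e-05) and 0.90 ± 0.05 for Sec61g (limma adjusted p = 5.63e-06). Sec63, whose J domain brings the chaperone Hspa5 to the channel, rose by 0.83 ± 0.08 (limma adjusted p = 8.21e-05), and its partner Sec62, which helps proteins with weak signals, by 0.29 ± 0.08 (limma adjusted p = 0.0169). The Sec62 call was lost with scaling to total fragments (0.16, limma adjusted p = 0.102), with 2 other settings and without WT DMSO replicate 2 or 3 (0.25 and 0.28, limma adjusted p = 0.063 and 0.0556).

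The TRAP complex contained the member with the highest level in all groups. Ssr3, the gamma subunit that lies against the ribosome, stood at 96.6, 82.4 and 86.4 FPKM in WT DMSO, 393, 297 and 297 in WT Tu, with 305, 313 and 319 in CKO Tu. WT Tu replicate 1 was the highest of the 9 libraries, and no tunicamycin library came near the vehicle range. Its rise in WT Tu was 1.87 ± 0.11 (limma adjusted p = 5.44e-06), with a mean ratio of 3.72. Ssr1 (chr13:37966605-37994217), the alpha subunit, stood at 18.4, 18.3 and 18.8 FPKM in WT DMSO, 49.3, 47.2 and 48.2 in WT Tu, with 42.7, 44.1 and 41.9 in CKO Tu, a rise of 1.34 ± 0.05 in WT Tu (limma adjusted p = 2.17e-07). Its 3 groups were tight and did not overlap. Tram1 (chr1:13564698-13589910), which helps some signal sequences enter the channel, stood at 61.8, 56.8 and 55.6 FPKM in WT DMSO, 159, 122 and 129.6 in WT Tu, with 121, 117 and 127 in CKO Tu. Its rise was 1.22 ± 0.10 (limma adjusted p = 2.89e-05), and again WT Tu replicate 1 was the highest library.

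The beta subunit gene Ssr2 stood at 73.7, 59.3 and 66.7 FPKM in WT DMSO, 126, 125 and 125 in WT Tu, with 101, 97.1 and 100.4 in CKO Tu. It rose by 0.91 ± 0.07 in WT Tu (limma adjusted p = 3.28e-05), and the CKO Tu libraries lay between the other groups. Ssr4, for the delta subunit, rose least, by 0.26 ± 0.08 (limma adjusted p = 0.0423). That call was lost with scaling to total fragments (0.13, limma adjusted p = 0.278), with 4 other settings and without any single WT DMSO library, WT Tu replicate 2 or 3, or CKO Tu replicate 2.

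Signal peptidase had the highest median change of the 6 complexes. Spcs3 (chr8:54520433-54529998), an accessory subunit needed for cleavage, stood at 17.8, 17.4 and 16.7 FPKM in WT DMSO, 79.9, 61.2 and 66.0 in WT Tu, with 74.3, 76.1 and 74.5 in CKO Tu. The lowest tunicamycin library was far above the highest vehicle library, and the rise in WT Tu was 1.93 ± 0.09 (limma adjusted p = 1.21e-06), with a mean ratio of 3.99. Sec11c, one of 2 alternative catalytic subunits, stood at 5.004, 4.33 and 3.57 FPKM in WT DMSO, 18.1, 13.8 and 14.1 in WT Tu, with 17.97, 19.0 and 19.7 in CKO Tu, a rise of 1.62 ± 0.12 (limma adjusted p = 2.15e-05). Only WT Tu replicate 1 reached the CKO Tu range. Spcs2 (chr7:99837569-99863462), an accessory subunit that faces the cytosol, stood at 25.5, 20.5 and 22.2 FPKM in WT DMSO, 72.5, 59.3 and 62.3 in WT Tu, with 56.1, 59.5 and 59.8 in CKO Tu, a rise of 1.47 ± 0.09 (limma adjusted p = 8.82e-06). Sec11a, the other catalytic subunit, rose by 1.27 ± 0.08 (limma adjusted p = 6.99e-06).

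Spcs1 rose least, by 0.19 ± 0.05 (limma adjusted p = 0.0257), and was no longer called with scaling to total fragments (0.06, limma adjusted p = 0.475) or with a trend on GC content removed (0.03, limma adjusted p = 0.775). Its call was also lost with 3 other settings and without WT DMSO replicate 1 or 2 or WT Tu replicate 2 or 3. The exons of Spcs1 share 16.3% of their bases with Glt8d1 on the opposite strand, which also rose (0.46, limma adjusted p = 0.00307), and those of Sec11a share 4.68% with Gm16171 (1.08 to 10.6 FPKM) and 3.53% with Nmb (2.07 to 7.80 FPKM). The strand setting of the counting is not given in the sources used here, so reads of stretches shared with the opposite strand cannot be assigned with certainty. Nmb lies on the same strand as Sec11a, where that setting does not separate the reads. In all, 16 of the 33 members share exon bases with another gene.

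The EMC genes did not move together. Emc1 (chr4:139352587-139378730), the large subunit with a broad domain in the ER lumen, stood at 7.93, 7.73 and 6.89 FPKM in WT DMSO, 4.91, 5.08 and 5.73 in WT Tu, with 4.79, 4.99 and 5.61 in CKO Tu. It fell by 0.45 ± 0.08 on the log2 scale in WT Tu (limma adjusted p = 0.00314), with no overlap between vehicle and tunicamycin. Its exons share 1.63% of their bases with Ubr4, which fell as well (32.96 to 20.8 FPKM), and 29.3% with the antisense gene 2700016F22Rik, which averaged at most 0.0739 FPKM. Emc10 (chr7:44489937-44496529), a subunit in the lumen, stood at 31.5, 27.3 and 32.1 FPKM in WT DMSO, 19.5, 23.0 and 24.8 in WT Tu, with 17.9, 18.8 and 19.9 in CKO Tu. All tunicamycin libraries were below the vehicle libraries, and the change in WT Tu was -0.42 ± 0.10 (limma adjusted p = 0.00966). With a trend on GC content removed it was -0.18 and no longer called (limma adjusted p = 0.0699); Emc10 has a GC content of 60.7%, against a median of 49.4% over all genes tested, and across genes the change in WT Tu ran against GC content (Spearman's rho -0.345 over 11848 genes, which are not independent replicates).

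Emc2, a subunit of the cytosolic cap, stood at 4.46, 4.32 and 3.75 FPKM in WT DMSO, 5.84, 5.75 and 5.04 in WT Tu, with 4.87, 5.07 and 5.23 in CKO Tu, and Emc7, which reaches into the lumen, at 17.0, 16.5 and 16.4, then 21.3, 19.4 and 18.1, then 17.4, 16.6 and 16.3 FPKM. In WT Tu, Emc2 rose by 0.34 ± 0.08 (limma adjusted p = 0.00999) and Emc7 by 0.22 ± 0.06 (limma adjusted p = 0.0265). The GC trend removed, neither was called (0.18 and 0.09, limma adjusted p = 0.0776 and 0.198), and the Emc7 call was also lost with 4 other settings and without WT DMSO replicate 2 or 3 or WT Tu replicate 2. The insertase core genes Emc3 and Emc6 had changes of 0.14 ± 0.08 and -0.05 ± 0.06 (limma adjusted p = 0.213 and 0.55). Emc4, beside that core, stood at 49.7, 50.1 and 46.5 FPKM in WT DMSO, against 47.3, 47.2 and 46.9 in WT Tu, a change of -0.05 ± 0.05 (limma adjusted p = 0.547). With scaling to total fragments, Emc4 and Emc8 were called lower (-0.18 and -0.24, limma adjusted p = 0.0378 and 0.028).

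Ssr3 and Srpr had the highest levels in every group. FPKM is per length of all exons of a gene, which for members was 1 to 4.14 times the length of the principal transcript, and this limits comparisons between genes. In WT DMSO the mean level ran from 88.4 ± 7.35 FPKM for Ssr3, followed by Srpr at 82.6 ± 4.54, which overlap in their spread, down to Sec61a2 at 3.91 ± 0.154, Srp54a at 1.80 ± 0.531 and Emc9 at 0.952 ± 0.263 (SD, n = 3 each). In WT Tu the same genes stood at 329 ± 55.6 and 149.9 ± 4.91 FPKM, and the lowest 3 genes were the same in all groups. Summed over the 33 members, the mean level was 890.3 FPKM in WT DMSO, 1694 in WT Tu and 1633 in CKO Tu. The 9 EMC genes summed to 188 to 204 FPKM in the WT DMSO libraries, 187 to 191 in WT Tu and 175 to 177 in CKO Tu, while the TRAP and TRAM genes went from 236 to 271 up to 615 to 750 and 594 to 618 FPKM.

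In 3 places of the machinery, a pair of paralogs can take the same position, and the share of each was tested by exact two-sided permutation of the log2 ratio of FPKM + 1 per library (6 tests, with 0.1 the smallest p that 3 libraries against 3 can give). The pore gene Sec61a2 (chr2:5870987-5895432) stood at 4.09, 3.83 and 3.81 FPKM in WT DMSO, 4.60, 3.96 and 4.27 in WT Tu, with 4.15, 3.75 and 4.16 in CKO Tu, and was not called in any comparison. Since Sec61a1 rose, the share of Sec61a2 in the pair went from 9.02%, 9.23% and 9.50% of FPKM in the WT DMSO libraries to 4.45%, 4.17% and 4.54% in WT Tu, and was 4.53%, 4.02% and 4.44% in CKO Tu. The log2 ratio differed by -1.15 between WT Tu and WT DMSO (exact permutation p = 0.1, adjusted 0.2) and by -0.0049 between CKO Tu and WT Tu (exact permutation p = 1, adjusted 1). The exons of Sec61a2 share 19.9% of their bases with Nudt5, which stood at 7.10 and 6.90 FPKM in the WT groups.

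**Figure D4:**
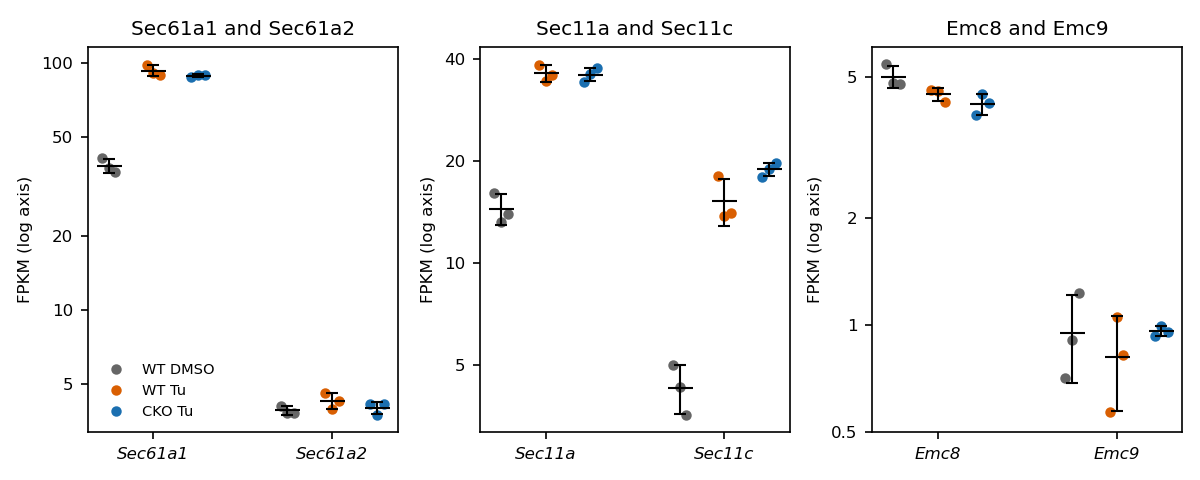
FPKM (log axis) of the 3 paralog pairs in each library, with grey for WT DMSO, orange for WT Tu and blue for CKO Tu, and the mean and SD of 3 libraries in black. Sec61a1 is at most 41.3 FPKM in WT DMSO and at least 87.5 with tunicamycin while Sec61a2 is at most 4.60 in every library, Sec11a and Sec11c both rise, and Emc8 and Emc9 stay near their vehicle levels.

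In signal peptidase, Sec11a stood at 16.1, 13.2 and 13.9 FPKM in WT DMSO, 38.5, 34.4 and 35.7 in WT Tu, with 34.3, 36.0 and 37.5 in CKO Tu. The share of Sec11c in the pair was 23.7%, 24.6% and 20.4% in WT DMSO, 32.0%, 28.5% and 28.2% in WT Tu, with 34.4%, 34.5% and 34.4% in CKO Tu, and none of the groups overlapped. The table gives Sec11c a length of 3084 bases, against 6808 for its exons in GENCODE M21, so its level and this share depend on a gene model that is not given in the sources used here. The log2 ratio differed by 0.35 between WT Tu and WT DMSO and by 0.31 between CKO Tu and WT Tu (exact permutation p = 0.1, adjusted 0.2, for each). Emc8 and Emc9 are alternative subunits of the EMC cap. Emc8 stood at 5.41, 4.799 and 4.77 FPKM in WT DMSO, 4.60, 4.55 and 4.25 in WT Tu, with 3.89, 4.46 and 4.22 in CKO Tu, with Emc9 at 0.713, 0.911 and 1.23, then 0.570, 1.06 and 0.824, then 0.932, 0.995 and 0.958 FPKM. Emc9 rested on 20 to 48 fragments per library. The log2 ratio of Emc9 to Emc8 differed by 0.03 and 0.19 (exact permutation p = 0.8 and 0.2, adjusted 0.96 and 0.3) in WT Tu against WT DMSO and in CKO Tu against WT Tu, and the ratios of all groups overlapped. The second value was 0.08 without WT Tu replicate 1 and 0.34 with a pseudocount of 0.1.

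Few members differed between knockout and wild-type cells under tunicamycin, and none by more than 0.34 on the log2 scale. In CKO Tu against WT Tu, no member was called higher by limma, 6 were called lower (Srp19, Srprb, Ssr1, Ssr2, Emc4 and Emc7) and 26 were not called, with a median of -0.06 on the log2 scale. Over all genes tested, 18.7% were called higher, 19.6% lower and 38.3% either way, with a median of -0.0021, so the share of members called lower was close to that of all genes. None was higher by at least 1 on the log2 scale, against 2.24% of all genes. At an unadjusted p below 0.05, Srpr, Ssr4 and Sec11c were higher (3 members), and voom on the recovered fragments called 1, Sec11c. The groups did not overlap for 9 members, and for 51.2% of all genes. Of the 24 members that rose with tunicamycin, 5 were called lower in CKO Tu than in WT Tu; both comparisons share the WT Tu libraries. Of all 2099 genes that rose, 578 (27.5%) were called lower there, against 20.8% of the members that rose. Sex, as described above, differed between these groups too.

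The largest of these differences were those of Srp19 at -0.34 ± 0.09 (limma adjusted p = 0.0191) and Ssr2 at -0.33 ± 0.07 (limma adjusted p = 0.00749), whose CKO Tu libraries all lay below the WT Tu libraries. Emc7 differed by -0.21 ± 0.06 (limma adjusted p = 0.0284) and Srprb by -0.18 ± 0.06 (limma adjusted p = 0.0405), with no overlap. For Ssr1 the difference was -0.17 ± 0.05 (limma adjusted p = 0.0193), also without overlap. Emc4 stood at 42.8, 38.5 and 40.9 FPKM in CKO Tu, below all WT Tu libraries, a difference of -0.21 ± 0.05 (limma adjusted p = 0.0157).

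Only Ssr2 kept its call in all 19 alternative settings. Without WT Tu replicate 1, the library away from its group, 10 members were called: 5 of the 6 above, without Srprb (-0.17, limma adjusted p = 0.0605), Emc10 lower (-0.33, limma adjusted p = 0.0126), and Srp9 (0.18, limma adjusted p = 0.0348), Srpr (0.16, limma adjusted p = 0.0299), Spcs3 (0.24, limma adjusted p = 0.00583) and Sec11c (0.41, limma adjusted p = 0.015) higher. Without CKO Tu replicate 2 or replicate 3, 3 members were called. With all libraries, Srpr was at 0.14 (limma adjusted p = 0.0744), Sec11c at 0.30 (limma adjusted p = 0.0864) and Emc10 at -0.23 (limma adjusted p = 0.0875). Ssr4, the one member on the X chromosome, stood at 22.0, 24.3 and 26.4 FPKM in WT Tu, against 25.2, 28.4 and 30.2 in CKO Tu, a difference of 0.19 ± 0.08 (limma adjusted p = 0.0971) with overlapping groups.

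Set against vehicle-treated wild-type cells, the knockout cells with tunicamycin had most members outside EMC higher and 4 EMC genes lower. In CKO Tu against WT DMSO, 22 members were higher, 4 were lower (Emc1, Emc4, Emc8 and Emc10) and 6 were not called, with a median of 0.59 on the log2 scale. A difference of at least 1 was called for 9 members and for 4.4% of all genes. Of all genes tested, 25.3% were higher, 24.2% lower and 49.5% called either way. Outside EMC, 21 of 24 were higher and none lower (0 also by voom and 0 at an unadjusted p below 0.05), with a median of 0.90, and of 8 EMC genes 1 was higher and 4 were lower, with a median of -0.10. Spcs3 was higher by 2.06 ± 0.09 (limma adjusted p = 3.68e-07), Sec11c by 1.91 ± 0.12 (limma adjusted p = 3.79e-06) and Ssr3 by 1.81 ± 0.11 (limma adjusted p = 2.98e-06). Emc10 was lower, at -0.65 ± 0.10 (limma adjusted p = 0.000518), and so was Emc4, at -0.25 ± 0.05 (limma adjusted p = 0.00414). The call of Emc8 as lower (limma adjusted p = 0.0377) was lost in 9 of the 18 alternative settings in which it was tested. That of Emc2, the EMC gene called higher (limma adjusted p = 0.0366), was lost in 9 of 19. Treatment, genotype and sex all differ in this comparison.

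Other genes of ER entry, from a list of 44 of which 41 were tested, are described by route, and no test of the difference between routes was made. In WT Tu against WT DMSO, 20 rose, 5 fell and 16 were not called, with a median of 0.30. The shares over all genes tested were 17.7% risen and 15.9% fallen. Oligosaccharyltransferase, the enzyme at the translocon that adds N-glycans, had 10 of 12 subunits higher and none lower (0 also by voom, and 1 at an unadjusted p below 0.05), with a median of 0.84. Its largest changes were those of Magt1 at 1.91 ± 0.08 (limma adjusted p = 8.23e-07), an oxidoreductase subunit, Ostc at 1.67 ± 0.09 (limma adjusted p = 4.04e-06), which links the enzyme to Sec61, and Rpn1 at 1.12 ± 0.06 (limma adjusted p = 4.48e-06). Among 13 targeting and translocon partners, 7 rose and 1 fell. The one that fell was Tram2, a paralog of the member Tram1, at -0.62 ± 0.10 (2.06 to 1.00 FPKM, limma adjusted p = 0.00188). The chaperone Hspa5, which pulls chains into the lumen and closes the channel, rose to 9.22 times its vehicle mean (limma adjusted p = 1.77e-08). On the log2 scale, its exchange factor Hyou1 rose by 3.56 ± 0.11 (limma adjusted p = 1.36e-07), the Sec61-bound Serp1 by 1.56 ± 0.08 (limma adjusted p = 3.05e-06), and H13, the signal peptide peptidase that clears cut signal peptides, by 0.72 ± 0.05 (limma adjusted p = 1.57e-05).

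The remaining classes of that list gave mixed counts. Of 8 genes of the GET and SND routes, which bring tail-anchored and other proteins to the membrane, 1 rose and 2 fell, with a median of -0.15. Asna1, the ATPase that carries tail-anchored proteins, rose by 0.23 ± 0.05 (limma adjusted p = 0.00502), a call lost with scaling to total fragments (0.10, limma adjusted p = 0.15). Ubl4a, of the complex that loads it, was at -0.46 ± 0.06 (limma adjusted p = 0.000481), and the SND gene Tmem208 at -0.69 ± 0.06 (limma adjusted p = 5.75e-05). Of 6 genes of the multipass translocon, which joins Sec61 for proteins with many membrane segments, 1 rose and 2 fell, with a median of 0.11. These were Ccdc47 at 0.52 ± 0.07 (limma adjusted p = 0.000668), Ncln at -0.54 ± 0.07 (limma adjusted p = 0.000507) and Tmem147 at -0.28 ± 0.07 (limma adjusted p = 0.0127). The Tmem147 call was lost with the GC trend removed (-0.18, limma adjusted p = 0.0693) and without WT DMSO replicate 2 (-0.24, limma adjusted p = 0.0509). Mmgt1, which encodes a further EMC subunit, rose by 0.74 ± 0.09 (limma adjusted p = 0.000314), more than any of the 8 EMC members tested, while its paralog Mmgt2 was at -0.24 ± 0.13 (limma adjusted p = 0.197).

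**Figure D5:**
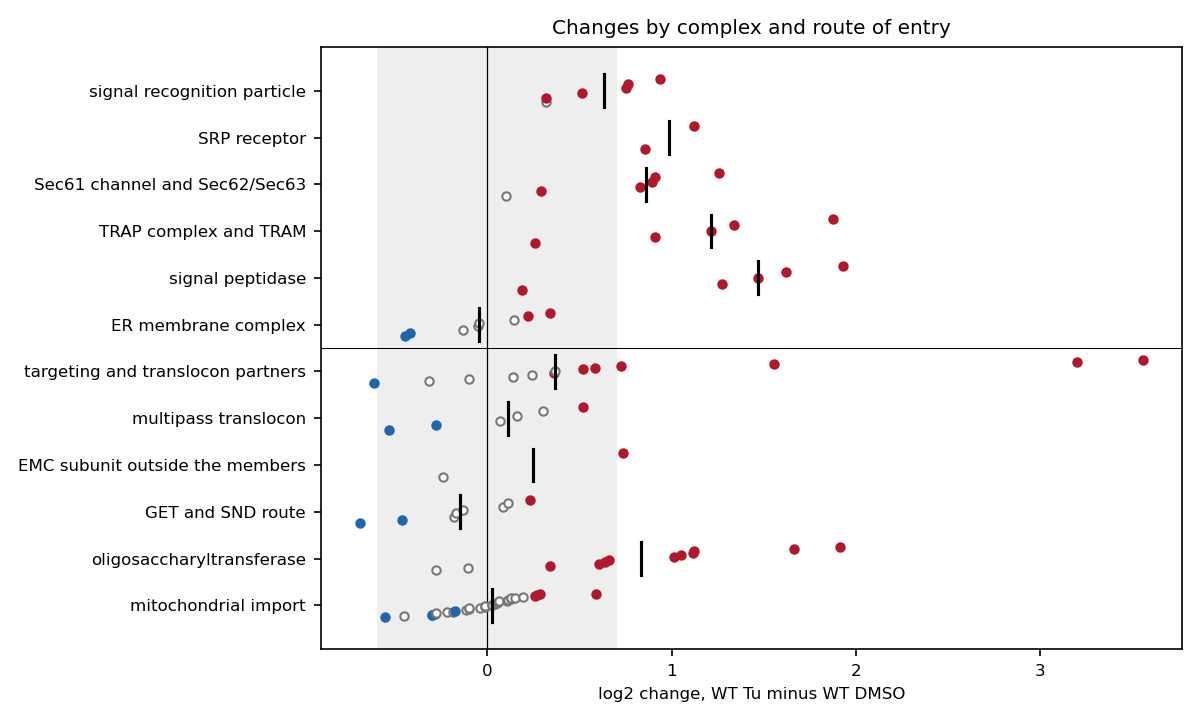
Log2 change in WT Tu against WT DMSO (x axis) of each tested gene, by complex or route (rows), with the members above the line and the comparison lists below it. Red points were called higher, blue points lower and open points not called, vertical bars are medians and the grey band spans the 5th to the 95th percentile of all genes tested. The medians of TRAP with TRAM (1.22), signal peptidase (1.47) and oligosaccharyltransferase (0.84) are among those beyond the band, and those of EMC (-0.05) and mitochondrial import (0.02) lie near 0.

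Mitochondrial protein import, the entry machinery of another organelle, was counted beside the members. Of 31 genes tested, 4 rose, 5 fell and 22 were not called, with a median of 0.02. The shares over all genes tested were 17.7% risen and 15.9% fallen. The extremes were Timm21, of the inner membrane translocase, at 0.59 ± 0.10 (limma adjusted p = 0.00221), the small chaperone Timm9 at 0.28 ± 0.09 (limma adjusted p = 0.0426), the oxidase Gfer at -0.56 ± 0.16 (limma adjusted p = 0.0285) and the small chaperone Timm13 at -0.45 ± 0.21 (limma adjusted p = 0.139, not called). The Timm9 call was lost in 12 of the 19 alternative settings, among them the replicate block (limma adjusted p = 0.0714), and the Gfer call in 5. Without WT Tu replicate 1, Gfer was at -0.33 (limma adjusted p = 0.00203) and Timm13 at -0.14 (limma adjusted p = 0.0807). In CKO Tu against WT Tu, 10 of these 31 genes were lower and none higher (1 by voom, and 2 at an unadjusted p below 0.05), and of the 41 other ER entry genes 4 were higher and 10 lower. The shares over all genes tested there were 18.7% higher and 19.6% lower.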

How the data were processed

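The authors deposited one table of FPKM for 54532 mouse genes in 9 libraries. Per the submitters' processing notes, HISAT2 2.2.1, featureCounts 1.5.0-p3 and the build mm10 were used; the annotation release and strand setting are not given in the sources used here. Gene lengths in the table equal the exon unions of GENCODE M21 for 32 of the 33 members, with Sec11c as the exception. FPKM times gene length gave whole fragments for 100% of values (tolerance 0.02), which gave the fragments per gene and library. The library size behind the deposited FPKM was 0.948 to 1.07 times the fragment total.

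Groups were taken from the sample titles. Values of log2(FPKM + 1) were fitted with limma 3.58.1 in R 4.3.3 over all 9 libraries, with group means and an intensity trend, for the 11858 genes that reached an FPKM of 1 in 3 or more libraries. Tests were two-sided, with Benjamini-Hochberg adjustment over all genes tested in each of 3 comparisons and a threshold of 0.05. Errors beside log2 values are SE from limma, and errors beside FPKM are SD of 3 libraries. The exact permutation tests used scipy 1.17.1. The limma fit was tested on simulated data in which 200 genes were changed, fewer than were called in these data.

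All members are accounted for. Values per library are given for up to 3 called members per complex with the largest change in WT Tu against WT DMSO, for members called in CKO Tu against WT Tu and for the 3 paralog pairs (Ssr4 was added for its chromosome after its values were seen). From the list of other ER entry genes, Serp1, Mmgt1, H13, Hspa5 and up to 3 called genes per class were named (Mmgt2 and Tram2 were added after their values were seen), and from mitochondrial import the 2 largest changes in each direction. The members and lists were chosen with earlier results of these data known.

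Alternatives were a pseudocount of 0.1, no filter, a filter at FPKM of 5, 3 other scalings (total fragments, upper quartile, quantile), a fit without the third group, a block for the replicate number, voom on recovered fragments, values with a lowess trend on GC content taken out (span 0.3), and each library left out in turn. Lists were not tested as sets. Promoters were read from RefSeq tables of GRCm38.p6. Some items, among them 1 member's promoter, are not reported here. Depth limits precision mainly for Emc9, with 20 to 48 fragments per library, and the table does not separate duplicate fragments from molecules.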

Additional observations from a re-analysis of the deposited data

How the results depend on the processing

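In WT Tu against WT DMSO, 20 to 24 members rose and 1 to 4 fell under the 19 alternatives, and 19 of the 24 rises and 1 of the 2 falls (Emc1) held in every setting in which the gene was tested. For CKO Tu against WT DMSO, 20 of 22 higher and 3 of 4 lower calls did. For CKO Tu against WT Tu, Ssr2 was the only one of 6 calls that did. The count of 6 members there was 10 (3 higher, 7 lower) with the GC trend removed and ran from 3 to 10 with a library left out (10 without WT Tu replicate 1, and 3 without CKO Tu replicate 2 or 3), and with scaling to total fragments 3 of the 5 called were higher. The cause was not tested. Values of uncalled genes and ratios near 0 changed sign. Sec61a2 in WT Tu against WT DMSO was at -0.0049 with scaling to total fragments, and Emc6 ran from -0.10 to 0.0026 with a library left out (above 0 only without WT DMSO replicate 1). The log2 ratio of Sec61a2 to Sec61a1 in CKO Tu against WT Tu ran from -0.035 to 0.040 with a library left out. That of Emc9 to Emc8 in WT Tu against WT DMSO was -0.048 with a pseudocount of 0.1 and ran from -0.11 to 0.16 with a library left out.

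Scaling to total fragments moved the median change of all genes in WT Tu against WT DMSO from -0.0015 to -0.11. The split of all genes called there was 2099 higher and 1882 lower, against 1430 and 3108 with total fragments and 1739 and 2375 with the upper quartile. Between CKO Tu and WT Tu it was 2213 and 2325, against 2597 and 1880 with total fragments. Between CKO Tu and WT DMSO it was 3001 and 2868, against 2552 and 3426 with total fragments and 2526 and 3437 with the upper quartile. Voom on the recovered fragments called 4296, 4776 and 6143 genes in the 3 comparisons, against 3981, 4538 and 5869.

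Replicate numbers did not pair the libraries: deviations from the group means of same-numbered libraries correlated between -0.0967 and 0.0208. With the replicate block, 24 members rose and 2 fell in WT Tu against WT DMSO, 5 were lower in CKO Tu against WT Tu, without Srprb (limma adjusted p = 0.062), and 22 were higher and 3 lower in CKO Tu against WT DMSO, without Emc8 (limma adjusted p = 0.0646). Over all genes the block gave 3696, 4248 and 5683 calls in the 3 comparisons, and for the other ER entry genes 25, 13 and 22.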
